A study of Mus musculus with 6 samples.

Results

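The genes described here are 37 markers and regulators of the cartilage, bone and tendon lineages, chosen by symbol, collagens left out, from 55536 genes in the count tables. They are 17 cartilage genes, 15 bone genes, 3 tendon genes and 2 genes, Chodl and Ptx4, to which no lineage was assigned. All 37 symbols were found in the GENCODE annotation of the files, 1 gene identifier each. They were measured by bulk RNA-seq in stromal cells of mouse quadriceps, sorted as CD45 and CD31 negative and CD29 positive. The 3 p16+ libraries came from cells positive, and the 3 p16- libraries from cells negative, for tdTomato, a fluorescent reporter of p16 on the C57Bl/6 background. The groups share the surgery that the labels describe for all samples, the resection of quadriceps muscle in both legs at 10 weeks of age. The defect was filled with 30 mg of polycaprolactone particles, with decellularized extracellular matrix or with 50 uL of saline, and tissue was taken 1 or 6 weeks later. The sources used here do not tell which filler and time belong to these 6 libraries, how the reporter was built, or whether animals were pooled.

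Cartilage is built by chondrocytes under the control of Sox9 with Sox5 and Sox6, which drive aggrecan, link protein and matrilins. Bone is built by osteoblasts, whose formation needs Runx2 and then Sp7 and which later express osteocalcin, bone sialoprotein and, as osteocytes, sclerostin. Tendon cells depend on the factors Scx and Mkx and make tenomodulin. Fibroblastic cells of muscle and other soft tissues express parts of these programmes, and members of them are also made by mesenchymal progenitors.

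The libraries held between 35253406 and 37861713 counts in the p16+ group, against between 36507067 and 39103909 in the p16- group. Cdkn2a, the p16 gene, had 251, 324 and 265 counts in p16+ libraries and 98, 70 and 82 in p16- libraries (log2 fold change 1.88, edgeR adjusted p = 2.00e-05). The labelled cell type was checked by 8 fibroblast markers, all of which were measured in every library, led by Col3a1 at a mean of 69175 CPM in p16+, against 44919 CPM in p16-. CPM is a gene's count scaled to the size of its library, here with TMM factors, and 3 counts in a library corresponded to 0.0737 to 0.0876 CPM. Of the markers of cells that the gate should remove, Ptprc (CD45) averaged 7.77 CPM in p16+ and 4.89 CPM in p16- (edgeR adjusted p = 0.0602), and Pecam1 (CD31) 6.73 CPM and 3.34 CPM in the same order (edgeR adjusted p = 0.00871). In bulk RNA, fewer cells of a type and less RNA per cell cannot be told apart. Separate animals are not named for the replicates, and a p-value therefore covers the spread among these 6 libraries alone, which may be technical.

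Skeletal lineage genes were transcribed in part. A filter on low counts was passed by 28 of the 37, and the other 9 had at most 7 counts in any library. Of the 28, 10 were higher and 1 was lower in p16+ cells at an adjusted p under 0.05 (edgeR's quasi-likelihood test, Benjamini-Hochberg adjustment over 15903 genes), or 39.3% of those tested. Of all genes tested 16.7% passed, 8.69% higher and 8.04% lower in p16+. Of these calls 52.0% were higher in p16+, or 36.0% when libraries were scaled by their sizes alone. The median log2 fold change, p16+ over p16-, was 0.33 over the 28 genes and -0.01 over all genes tested. Every p16+ library lay above every p16- library for 11 of the 28, where 16.6% of all genes tested did so, and below for 2, where 16.5% did so. By lineage, 5 of 10 tested bone genes rose and 0 fell, 4 of 13 tested cartilage genes rose and 1 fell, and 1 of 3 tendon genes rose. The 2 genes without a lineage did not pass the test. With any 1 library left out, 4 bone genes were higher, or 3 without p16- replicate 1. It was also 4 with library sizes alone, without the filter and with replicate number as a block. Cartilage genes that were higher numbered 2 to 6 with 1 library left out, with 2 without p16+ replicate 3 or p16- replicate 3. At least 2-fold changes were called for 6 of the 28 genes, 5 of them higher in p16+, where 4.21% of all genes tested reached that in either direction and 1.89% higher. The log2 fold change was above 0 for 22 of the 28 and for 48.9% of all genes tested. These counts describe the genes that passed the filter, which a low gene can pass through the group where it is higher. The 37 genes were chosen with earlier results of these data known. Their shares beside those of all genes are therefore a description, and no test of the set was made.

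**Figure D1:**
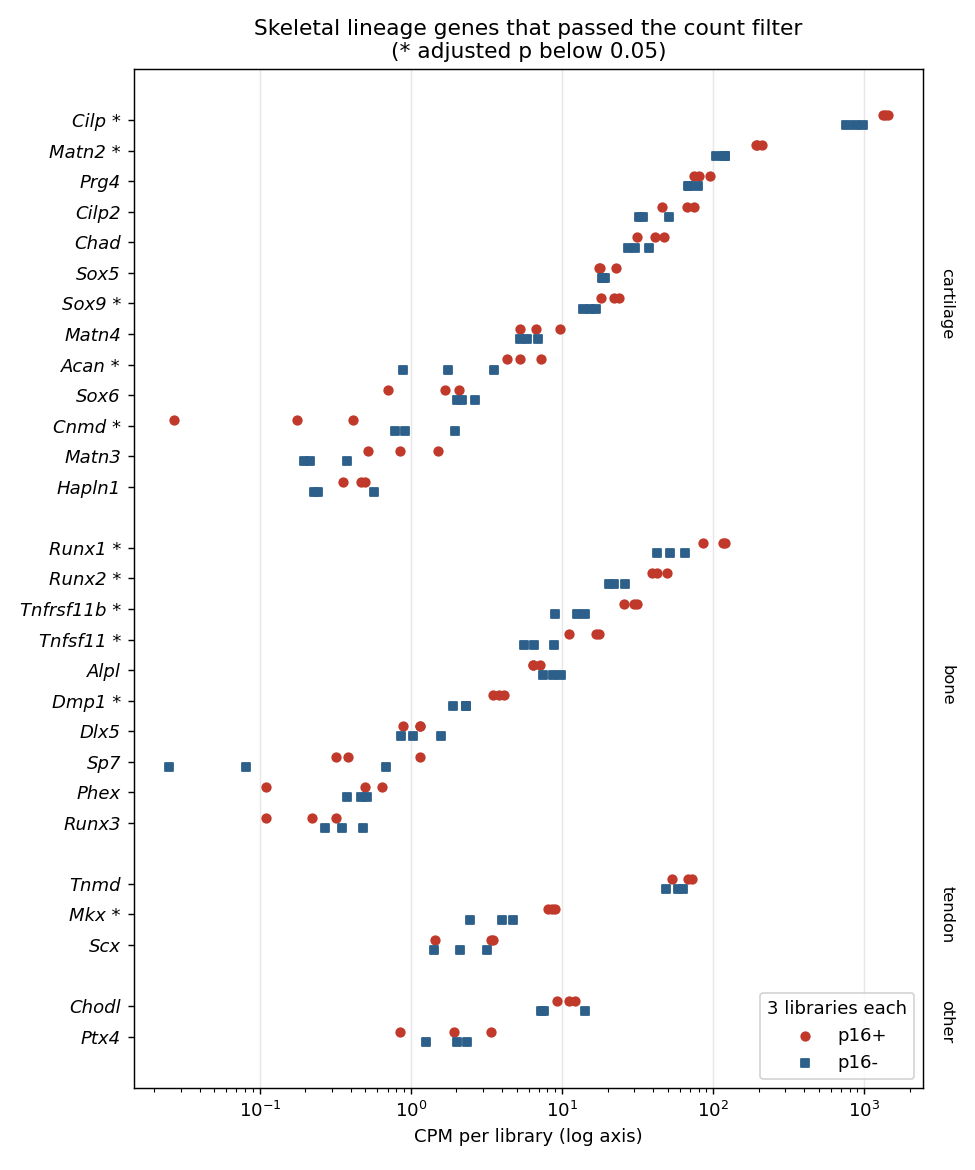
CPM of each library (log axis) for the 28 skeletal lineage genes that passed the filter, by lineage and by mean level. Red circles are the 3 p16+ libraries, blue squares the 3 p16- libraries, and an asterisk marks an adjusted p below 0.05. Levels ran from over 1300 CPM for Cilp in p16+ to below 1 CPM for Runx3, Phex and Hapln1, and the circles of Runx1, Runx2, Tnfrsf11b, Tnfsf11, Mkx, Matn2 and Cilp lay clear of their squares.

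Among the bone transcription factors, Runx1 and Runx2 both rose, and Sp7, Dlx5 and Runx3 were scarce. Runx2, the factor required for osteoblast formation (chromosome 17, 44495987 to 44814797, GRCm38), had 39.2, 42.3 and 49.5 CPM in p16+ libraries and 21.9, 25.9 and 20.3 CPM in p16- libraries. The groups did not overlap, and the log2 fold change was 0.94, with an SE of 0.11 and an adjusted p of 2.64e-05. Runx1, a factor of blood formation and of early skeletal progenitors (chromosome 16, 92601466 to 92826149), had 86.1, 117 and 120 CPM in p16+ and 52.0, 65.3 and 42.8 CPM in p16-. It too was higher in each p16+ library than in any p16- library, and its log2 fold change was 1.01, with an SE of 0.15 and an adjusted p of 6.63e-04. Without p16- replicate 1 the adjusted p of Runx1 was 0.0821 at a log2 fold change of 1.00.

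Per kilobase of exon, Runx1 stood at 8.95 ± 1.56 in p16+ and 4.44 ± 0.94 CPM per kb in p16- (SD, n = 3 each), and Runx2 at 4.94 ± 0.599 and 2.57 ± 0.322 CPM per kb in the same order. Runx3, the third family member, known in T cells and neurons, had 0.0433 ± 0.0212 CPM per kb in p16+ and 0.0732 ± 0.0211 in p16-. On this scale Runx2 took 33.0% to 38.1% of the family's level in p16+ libraries and 34.6% to 38.8% in p16- libraries, and the ranges of the groups overlapped. Of the exonic length of Runx2, 5.87% is shared with Runx2os1 on the opposite strand. In unstranded counting, fragments that overlap both genes are left out by default.

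Sp7, which encodes osterix and acts after Runx2 in osteoblasts, had 14, 42 and 11 counts in p16+ libraries and 28, 1 and 3 in p16- libraries. The groups overlapped, and 1 library in each held most of the counts (adjusted p = 0.464). Dlx5, a homeobox gene that promotes osteoblast differentiation, had 32, 42 and 39 counts in p16+ and 42, 63 and 32 in p16- (log2 fold change -0.14 with an SE of 0.46, adjusted p = 0.887). Runx3, with at most 19 counts in a library, had an adjusted p of 0.607.

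The ligand that drives osteoclast formation and its decoy receptor both rose. Tnfsf11 encodes RANKL, the ligand, and Tnfrsf11b encodes osteoprotegerin, the soluble decoy receptor that binds RANKL. Tnfrsf11b (chromosome 15, 54250619 to 54278484) had 25.6, 30.0 and 31.1 CPM in p16+ libraries, against 8.97, 14.2 and 12.6 CPM in p16- libraries. Tnfsf11 (chromosome 14, 78277445 to 78308043) had 11.1, 16.9 and 17.5 CPM in p16+, against 6.49, 8.90 and 5.62 CPM in p16-. Neither gene overlapped between the groups. The log2 fold changes were 1.28 for Tnfrsf11b (SE 0.15, adjusted p = 2.06e-05) and 1.11 for Tnfsf11 (SE 0.20, adjusted p = 9.27e-04). Per kilobase of exon, the level of Tnfsf11 was 54.6%, 70.9% and 71.0% of that of Tnfrsf11b in p16+ libraries and 91.2%, 79.0% and 56.0% in p16- libraries. The decoy receptor transcript thus exceeded the ligand transcript in all 6 libraries, and the ratios of the groups overlapped.

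**Figure D2:**
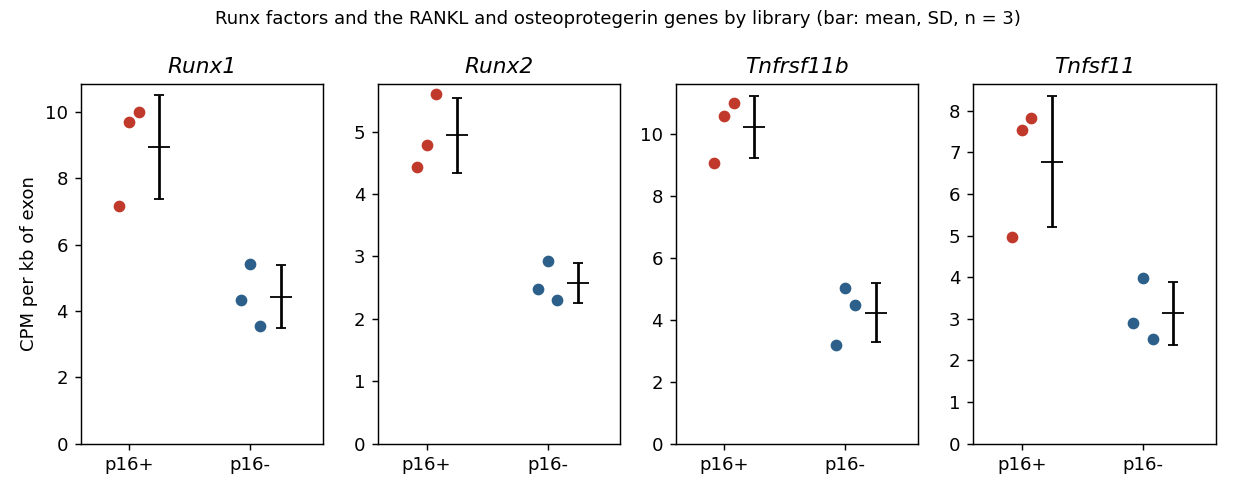
CPM per kb of exon of Runx1, Runx2, Tnfrsf11b (osteoprotegerin) and Tnfsf11 (RANKL), each on its own axis from 0; points are libraries (p16+ red, p16- blue) and the black bar beside them is the mean with its SD (n = 3). In each panel the 3 p16+ points lie above the 3 p16- points, for Runx2 at 4.44 to 5.60 CPM per kb in p16+, against 2.30 to 2.93 CPM per kb in p16-.

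The receptor of RANKL and the cells it acts on were also looked at. Tnfrsf11a, which encodes the receptor RANK, had 43, 22 and 24 counts in p16+ and 12, 44 and 15 in p16- (adjusted p = 0.703). Of 10 osteoclast markers, 8 were tested, 4 rose and 0 fell, where 8.69% of all genes tested rose and 8.04% fell. The part of these markers in the results was not tested. Their summed level was 1479 to 1563 CPM in p16+ and 879 to 990 CPM in p16-, of which Ctsk, the cathepsin K gene, made 82.8% in p16+ and 79.2% in p16-. Acp5, the tartrate-resistant acid phosphatase gene, averaged 85.6 CPM in p16+ and 32.4 CPM in p16- (log2 fold change 1.40, adjusted p = 1.59e-07). Mmp9, a matrix metalloproteinase gene, averaged 32.2 CPM in p16+ and 17.1 CPM in p16- (adjusted p = 4.46e-05), and Atp6v0d2, a proton pump subunit gene, 11 and 5.65 CPM in the same order (adjusted p = 0.00232). The osteoclast receptor gene Oscar had 2, 0 and 0 counts in p16+ and 12, 3 and 1 in p16-. The fusion genes Ocstamp and Dcstamp had at most 17 and 41 counts in a library, and Calcr, the calcitonin receptor gene, had 51, 90 and 84 counts in p16+ and 100, 66 and 34 in p16-. Itgb3, an integrin gene, averaged 74.3 CPM in p16+ and 89.1 CPM in p16- and did not pass (log2 fold change -0.26, adjusted p = 0.0847). Nfatc1 averaged 57.3 and 47.4 CPM in the same order and did not pass either (adjusted p = 0.0557). None of the 10 markers was at 0 in all libraries.

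Genes of mineral and bone matrix did not move as a block. Dmp1, a phosphoprotein gene of osteocytes and dentin (chromosome 5, 104202613 to 104214102), had 150, 128 and 131 counts in p16+ libraries and 77, 92 and 86 in p16- libraries. It was higher in every p16+ library, at 3.81 ± 0.321 CPM in p16+, against 2.17 ± 0.244 CPM in p16- (SD, n = 3 each), and its adjusted p was 0.0476. This call was lost in 9 of 13 other settings, among them each omission of 1 library, with adjusted p-values of 0.0228 to 0.135 over the 13. Alpl, the tissue-nonspecific alkaline phosphatase gene that osteoblasts need for mineralization, had 6.38, 7.16 and 6.39 CPM in p16+, against 7.52, 8.70 and 9.86 CPM in p16-. All 3 p16+ values lay below the p16- values, but the test was not passed (log2 fold change -0.39 with an SE of 0.17, adjusted p = 0.148). Phex, an osteocyte endopeptidase gene linked to phosphate balance, had 18, 4 and 22 counts in p16+ and 19, 15 and 19 in p16- (adjusted p = 0.94).

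Of the bone genes, 5 were at or near 0. Sost (sclerostin), Mepe (matrix extracellular phosphoglycoprotein) and Bglap2 (osteocalcin 2) had 0 counts in all 6 libraries, which allows up to 0.0737 to 0.0876 CPM per library. Ibsp, the bone sialoprotein gene, had 1 count, in p16- replicate 2. Bglap, the osteocalcin gene, had 7 counts, all in the same library. Bglap and Bglap2 are near-identical neighbours on chromosome 3 (88383501 to 88384464 and 88377736 to 88378699), and fragments that align to both could have been left uncounted, so their zeros are less certain than those of Sost and Mepe. The summed level of the 15 bone genes was 174, 219 and 231 CPM in p16+ and 101, 128 and 95.4 CPM in p16-. Runx1 made 51.7% of it in p16+ and 49.3% in p16-, and without Runx1 the groups still did not overlap, at 88.4, 102 and 111 CPM in p16+ and 49.3, 62.6 and 52.5 CPM in p16-.

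The promoters were searched for core words of the RUNX and SOX factors. In the 250 bases before the RefSeq start sites, the RUNX core word TGTGGT, searched on both strands (ACCACA on the other), was found in 11 of 36 windows of the members (30.6%) and in 14.0% of the 32851 windows of all genes. The windows belong to 26 of the 37 genes, some with several starts. The SOX core word AACAAT, searched likewise on both strands, was found in 2 of the 36 windows (5.56%) and in 9.42% of all windows. The words were searched as letters, and a match is no measure of binding. Of the 26 genes with a window, 10 had a RUNX word in at least 1 window. They were 3 of the 7 that passed the test, 3 of the 12 tested that did not pass and 4 of the 7 too low to test. The share per gene over all genes was not computed, and genes differ in their number of windows. Windows were searched whole, with any annotated exon. In Hapln1, Runx3 and Runx2 the words lie outside the stretch before the first exon base. Printed are 2 genes that rose, Dmp1 with a word and Tnfsf11 without, and 2 at or near 0, Bglap with a word and Sost without. The sequences are from RefSeq on GRCm38.p6, 5′ to 3′ towards the start site and without annotated exon, with RUNX words in capitals.
Dmp1, chr5:104202367-104202612, plus strand: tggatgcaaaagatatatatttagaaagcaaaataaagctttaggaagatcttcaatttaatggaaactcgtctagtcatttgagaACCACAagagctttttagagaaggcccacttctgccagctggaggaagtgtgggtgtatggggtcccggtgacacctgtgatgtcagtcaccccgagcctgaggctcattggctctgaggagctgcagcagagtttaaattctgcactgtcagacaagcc
Tnfsf11, chr14:78308044-78308293, minus strand: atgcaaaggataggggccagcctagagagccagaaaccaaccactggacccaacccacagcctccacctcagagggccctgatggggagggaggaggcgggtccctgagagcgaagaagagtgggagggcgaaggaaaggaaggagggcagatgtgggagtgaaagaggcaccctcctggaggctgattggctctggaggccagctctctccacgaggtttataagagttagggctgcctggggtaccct
Bglap, chr3:88384467-88384716, minus strand: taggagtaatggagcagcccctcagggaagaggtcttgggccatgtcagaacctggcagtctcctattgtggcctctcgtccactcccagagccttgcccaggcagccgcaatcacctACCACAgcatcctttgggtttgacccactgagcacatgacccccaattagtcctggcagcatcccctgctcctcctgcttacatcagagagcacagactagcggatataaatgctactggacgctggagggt
Sost, chr11:101967016-101967265, minus strand: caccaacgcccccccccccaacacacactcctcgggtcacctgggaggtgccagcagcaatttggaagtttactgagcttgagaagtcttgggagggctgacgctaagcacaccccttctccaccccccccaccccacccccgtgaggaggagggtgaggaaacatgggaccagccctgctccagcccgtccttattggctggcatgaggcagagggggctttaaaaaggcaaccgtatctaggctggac
Bglap holds a word at position -132 from its start and Sost none, and both genes had 0 counts in every p16+ library. Dmp1 holds a word at -164 in the window printed, which ends where the gene starts in the files' annotation, and none in the window of its other RefSeq start. Tnfsf11 holds none in its window.

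Of the cartilage matrix genes, Cilp, Matn2 and Acan rose, and their levels differed widely. Cilp, which encodes cartilage intermediate layer protein, a matrix protein that binds TGF-beta (chromosome 9, 65265180 to 65280605), had 1427, 1336 and 1381 CPM in p16+ libraries and 761, 980 and 875 CPM in p16- libraries. Per kilobase of exon it averaged 325 ± 10.7 in p16+ and 205 ± 25.8 CPM per kb in p16- (SD, n = 3 each), above 99.2% of the genes tested. The groups did not overlap (log2 fold change 0.66 with an SE of 0.09, adjusted p = 8.69e-05). Matn2, the most widespread of the matrilin adaptor genes (chromosome 15, 34306677 to 34436273), had 193, 196 and 209 CPM in p16+, against 105, 119 and 119 CPM in p16- (log2 fold change 0.80 with an SE of 0.08, adjusted p = 3.61e-06). Its p16+ values also lay clear of its p16- values.

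Acan encodes aggrecan, the large proteoglycan that gives cartilage its resistance to compression (chromosome 7, 79053483 to 79115099). It had 191, 158 and 247 counts in p16+ libraries and 145, 70 and 33 in p16- libraries, or 5.59 ± 1.48 CPM in p16+, against 2.07 ± 1.36 CPM in p16- (SD, n = 3 each). Every p16+ library was above every p16- library, and the log2 fold change was 1.42, with an SE of 0.38 and an adjusted p of 0.0161. It depended on single libraries: the adjusted p was 0.103 when p16+ replicate 3 was left out and 0.0538 when p16- replicate 3 was, and leaving out p16- replicate 1 gave a log2 fold change of 2.07. Per kilobase of exon, Acan averaged 0.748 ± 0.199 CPM per kb in p16+ and 0.277 ± 0.183 in p16-.

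Hapln1, the link protein that fixes aggrecan to hyaluronan, had 17, 13 and 17 counts in p16+ and 23, 9 and 9 in p16- (adjusted p = 0.814). Matn3, a matrilin of cartilage, had 55, 19 and 29 counts in p16+ and 8, 15 and 8 in p16-. Its groups did not overlap, but the test was not passed (log2 fold change 1.85 with an SE of 0.67, adjusted p = 0.0743). With DESeq2 its adjusted p was 0.0331. In 11 of the 12 other settings that tested Matn3 it did not pass, with an edgeR adjusted p of up to 0.36, without p16+ replicate 1. Matn4, another matrilin, averaged 7.25 ± 2.25 CPM in p16+, against 6.01 ± 0.822 in p16- (SD, n = 3 each) and overlapped (adjusted p = 0.477).

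Chad, which encodes the leucine-rich protein chondroadherin, had 47.1, 31.2 and 41.0 CPM in p16+, against 37.5, 30.2 and 27.5 CPM in p16- (log2 fold change 0.32 with an SE of 0.14, adjusted p = 0.14). Cilp2, the relative of Cilp, had 75.2, 45.7 and 67.0 CPM in p16+, against 50.8, 34.2 and 32.2 CPM in p16- (log2 fold change 0.68 with an SE of 0.22, adjusted p = 0.0843). In both genes p16+ replicate 2 lay within the p16- range. Without p16+ replicate 2 the adjusted p was 0.0299 for Chad and 0.0017 for Cilp2, and without p16- replicate 1 it was 0.0363 for Chad and 0.0291 for Cilp2. With any other library left out neither gene passed, at an adjusted p of 0.264 to 0.494 for Chad and 0.155 to 0.306 for Cilp2. Prg4, which encodes lubricin, the lubricant of joint surfaces and tendon sheaths, had 80.1, 74.6 and 96.0 CPM in p16+, against 68.3, 79.1 and 68.9 CPM in p16- (log2 fold change 0.21 with an SE of 0.10, adjusted p = 0.161).

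Per kilobase of exon, the cartilage genes in p16+ libraries ran from Cilp at 325 through Matn2 at 31.9, Chad at 23.7, Prg4 at 19.5 and Cilp2 at 14.5 to Sox9 at 5.16 CPM per kb, and below 1.5 CPM per kb came Matn4, Sox5, Acan, Matn3, Cnmd, Sox6 and Hapln1. Chad and Prg4, with SDs of 4.77 and 2.59, overlapped. The lowest p16+ value of Prg4 and the highest of Cilp2, whose SD was 3.53, were both 17.4 CPM per kb. Every p16+ value of Chad lay above every p16+ value of Cilp2. The summed level of the 17 cartilage genes was 1736 to 1877 CPM in p16+ and 1072 to 1290 CPM in p16-, and Cilp alone made 75.7% of it in p16+ and 74.2% in p16-. Without Cilp the sums were 450.0, 400.0 and 476 CPM in p16+ and 311, 310.0 and 290.0 CPM in p16-.

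Of the 3 cartilage transcription factors, Sox9 alone passed the test. Sox9 (chromosome 11, 112782224 to 112787760) had 18.0, 22.2 and 23.8 CPM in p16+ libraries, against 15.3, 16.9 and 13.8 CPM in p16- libraries. The groups did not overlap, by a narrow margin, and the log2 fold change was 0.47, with an SE of 0.13 and an adjusted p of 0.021. Its adjusted p was 0.0806 when p16+ replicate 2 was left out, 0.114 when p16+ replicate 3 was and 0.102 when p16- replicate 3 was. Sox5, its partner in chondrocytes, had 17.6, 17.7 and 22.8 CPM in p16+, against 19.3, 18.4 and 18.7 CPM in p16- (log2 fold change 0.04 with an SE of 0.13, adjusted p = 0.882). Sox6, the other partner, had 61, 26 and 71 counts in p16+ and 82, 106 and 81 in p16- (log2 fold change -0.62 with an SE of 0.40, adjusted p = 0.34). Whether the fold change of Sox9 differed from those of Sox5 and Sox6 was not tested. Of the exonic length of Sox5, 9.25% is shared with Sox5os1 on the opposite strand.

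Cnmd was the only member that fell, at a low level, and 4 further cartilage genes were at or near 0. Cnmd encodes chondromodulin, a membrane glycoprotein that keeps vessels out of cartilage (chromosome 14, 79637690 to 79662170). It had 15, 1 and 6 counts in p16+ libraries and 80, 31 and 34 in p16- libraries (log2 fold change -2.56 with an SE of 0.76, adjusted p = 0.0302). Its level was low in both groups, at 0.205 ± 0.194 CPM in p16+, against 1.22 ± 0.649 CPM in p16- (SD, n = 3 each). The adjusted p was above 0.05 when any of 4 libraries was left out: 0.0858 for p16+ replicate 2, 0.0997 for p16+ replicate 3, 0.182 for p16- replicate 1 and 0.058 for p16- replicate 3. Leaving out p16+ replicate 1 gave a log2 fold change of -3.57.

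Ihh, the hedgehog ligand of prehypertrophic chondrocytes, had 3 counts, all in p16+ replicate 1. Scrg1, a gene raised in chondrogenic progenitors, had 3 counts, all in p16+ replicate 2. Ucma, a Gla protein gene of the upper growth plate, had 3 counts in p16+ and 1 in p16-. Matn1, the matrilin of mature hyaline cartilage, had 0 counts in all 6 libraries. Without a filter, none of the 5 untested members with any count, Ucma, Scrg1, Ihh, Ibsp and Bglap, passed the test (adjusted p = 0.37 to 0.781).

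Of the tendon genes, Mkx rose, while Tnmd and Scx overlapped between the groups. Mkx encodes Mohawk, a homeobox factor of tendon maturation (chromosome 18, 6934518 to 7004780), and 4.91% of its exonic length is shared with AC148004.2 on the same strand. It had 9.02, 8.55 and 8.12 CPM in p16+ libraries, against 4.74, 4.01 and 2.45 CPM in p16- libraries. The log2 fold change was 1.19, with an SE of 0.23 and an adjusted p of 0.00147, and it stayed between 0.97 and 1.41 and past the threshold in the 13 other settings. Scx, which encodes scleraxis, the earliest factor of the tendon lineage, had 122, 53 and 120 counts in p16+ and 130, 84 and 53 in p16- (log2 fold change 0.30 with an SE of 0.38, adjusted p = 0.674). Tnmd, a membrane glycoprotein gene of mature tendon cells and a relative of Cnmd, had 72.5, 53.1 and 68.1 CPM in p16+, against 63.1, 58.1 and 48.5 CPM in p16- (log2 fold change 0.19 with an SE of 0.12, adjusted p = 0.31). Tnmd was abundant all the same, at 47.7 ± 7.53 CPM per kb in p16+ and 41.8 ± 5.46 in p16- (SD, n = 3 each), above 94.9% of the genes tested per length. The summed level of the 3 tendon genes, of which Tnmd made 85.1% in p16+ and 90.4% in p16-, overlapped between the groups.

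Chodl, which encodes the membrane lectin chondrolectin, had 11.1, 12.2 and 9.26 CPM in p16+, against 7.23, 14.1 and 7.55 CPM in p16- (adjusted p = 0.669). Ptx4, a pentraxin family gene, had 70, 31 and 115 counts in p16+ and 96, 80 and 47 in p16- (adjusted p = 0.903). Neither separated the groups.

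**Figure D3:**
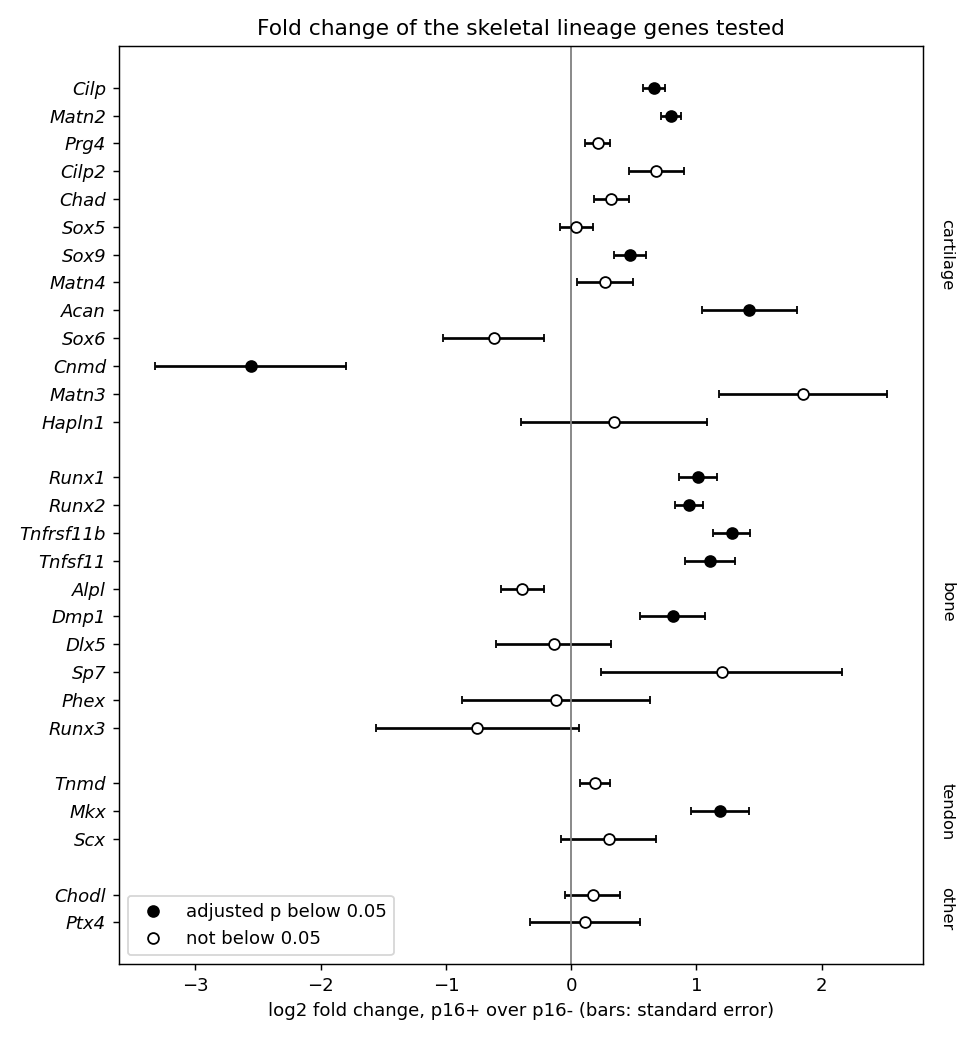
Log2 fold change, p16+ over p16-, of the 28 skeletal lineage genes tested, with its standard error as a bar, in the order of lineage and level. Filled points passed an adjusted p of 0.05 by edgeR and open points did not. The bone genes Runx1, Runx2, Tnfrsf11b and Tnfsf11 and the tendon gene Mkx lie between 0.94 and 1.28 with short bars, and Cnmd at -2.56 has a long one.

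The lowest library of a group was often the same one. Over the 13 cartilage genes tested, p16+ replicate 2 was the lowest of its group for 9 and the highest for 0, where over all genes tested it was the lowest for 32.1%. Over the 10 bone genes, p16+ replicate 2 was the lowest for 3 and p16+ replicate 1 for 6. Among p16- libraries, replicate 3 was the lowest for 13 of the 28 members, against 29.7% of all genes tested, and for all 3 tendon genes. Cartilage and tendon genes such as Acan, Chad, Cilp2, Scx and Tnmd were each lowest in p16+ replicate 2 and in p16- replicate 3 of their groups.

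Other genes of these lineages, from a list that is not part of the 37, moved in both directions. Of 18 further cartilage genes 13 were tested, 1 rose and 2 fell, where 8.69% of all genes tested rose and 8.04% fell. Trps1, a repressor of chondrocyte maturation, averaged 25.5 CPM in p16+ and 18.6 CPM in p16- (adjusted p = 0.0399), while Pthlh, the hormone-related peptide of the growth plate, averaged 32.2 and 58.0 CPM in the same order (adjusted p = 6.40e-05). Trps1 was not called with library sizes alone, nor when p16+ replicate 1, p16+ replicate 3 or p16- replicate 3 was left out. Vit, a vitrin matrix gene, fell to 11.9 CPM in p16+, against 24.4 CPM in p16- (adjusted p = 4.90e-04). The hedgehog target genes Ptch1 and Gli1 did not pass (adjusted p = 0.866 and 0.179).

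Of 18 further bone genes 14 were tested, 5 rose and 3 fell, where 8.69% of all genes tested rose and 8.04% fell. The 4 with the smallest p were Spp1 (osteopontin), at 376 CPM in p16+, against 118 CPM in p16-, Sparc (osteonectin), at 15510 and 8869 CPM, Tnn (tenascin N), at 33.2 and 12.6 CPM, and Ank, a pyrophosphate transport gene, at 76.6 and 44.3 CPM, with adjusted p-values of 1.52e-06, 3.56e-06, 4.97e-06 and 5.77e-06. Of the exonic length of Spp1, 18.8% is shared with Gm42793. The 3 that fell were Smpd3, a sphingomyelinase gene needed for mineralization, at 13.1 CPM in p16+, against 96.0 CPM in p16- (log2 fold change -2.88, adjusted p = 2.15e-04), Fgf23, the phosphate hormone of osteocytes, at 2.13 and 7.01 CPM (log2 fold change -1.72, adjusted p = 4.58e-04), and Omd, the osteomodulin gene, at 10.6 and 17.1 CPM (log2 fold change -0.69, adjusted p = 0.00521). Cbfb, the partner subunit of the RUNX factors, averaged 75.9 CPM in p16+ and 68.3 CPM in p16- (adjusted p = 0.202). Of 12 further tendon genes, 1 of which, Comp, is also among the cartilage genes, 5 rose and 2 fell, beside the same shares of all genes tested. The 4 with the smallest p were Tnc, at 663 CPM in p16+, against 236 CPM in p16- (adjusted p = 7.60e-07), Lox, at 839 and 382 CPM (adjusted p = 3.56e-06), Thbs4, at 2637 and 1414 CPM (adjusted p = 6.49e-06), and Pdgfrb, at 726 and 510 CPM (adjusted p = 2.98e-04). Egr1 and Tgfbi fell (log2 fold change -0.43 and -0.50, adjusted p = 0.00126 and 0.00202). Comp, a matrix gene of cartilage and tendon, did not pass (adjusted p = 0.26).

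Markers of other cell types moved with the groups beside these genes, and their part in the results was not tested. Beside the counts given for each list, 8.69% of all genes tested were higher and 8.04% lower in p16+. The summed level of 12 macrophage and leukocyte markers was 257 to 293 CPM in p16+ and 180 to 208 CPM in p16-, with 4 of 11 tested higher. The most abundant was Lyz2, at 168 CPM in p16+, against 124 CPM in p16-, and the smallest p were those of Csf1r and Laptm5 (log2 fold change 1.17 and 0.87, adjusted p = 7.32e-05 and 9.95e-04). That of 10 pericyte and smooth muscle markers was 2034 to 2112 CPM in p16+ and 1348 to 1710 CPM in p16-, with 6 of 10 higher. Rgs5 was the most abundant, at 915 CPM in p16+, against 704 CPM in p16-, and Notch3 and Des had the smallest p (log2 fold change 0.77 and 0.79, adjusted p = 1.27e-05 and 1.85e-05). The 8 Schwann cell markers summed to 46.0 to 59.3 CPM in p16+ and 94.3 to 163 CPM in p16-, with 7 lower. Mbp was the most abundant, at 17.2 CPM in p16+, against 36.0 CPM in p16-, and Erbb3 was among those lower (log2 fold change -1.91, adjusted p = 7.08e-06). The 10 endothelial markers summed to 91.3 to 116 CPM in p16+ and 195 to 226 CPM in p16-, with 3 higher and 1 lower. Tek, the one that was lower, made 47.1% of the sum in p16+ and 80.1% in p16- (log2 fold change -1.77, adjusted p = 5.24e-08). Of the 10, 8 had a log2 fold change above 0 and 2, Tek among them, below 0. Emcn was higher (log2 fold change 1.09, adjusted p = 0.00683). The 12 skeletal muscle markers summed to 29.0 to 42.0 CPM in p16+ and 29.0 to 31.3 CPM in p16-, with Pax7 higher and Myog lower (log2 fold change 0.97 and -2.73, adjusted p = 0.0184 and 0.00122). Acta1, the most abundant, averaged 8.76 CPM in p16+ and 7.53 CPM in p16- (adjusted p = 0.646). The 8 fibroblast markers summed to 151213 to 158631 CPM in p16+ and 89421 to 106932 CPM in p16-, with 5 higher and 1 lower. Collagens dominated the sum: Col3a1 made 44.7% of it in p16+ and 45.5% in p16-, followed by Col1a1 and Col1a2. Those 2 had the smallest p (log2 fold change 0.89 and 0.77, adjusted p = 2.66e-06 and 8.83e-06). Fap was the one lower, at 295 CPM in p16+, against 365 CPM in p16- (adjusted p = 0.00742). Pdgfra, at 866 and 1018 CPM in the same order, and Dcn, at 7884 and 8744 CPM, did not pass (adjusted p = 0.102 and 0.245). No marker of these lists was at 0 in all libraries.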

How the data were processed

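Bulk RNA-seq of 6 libraries, 3 p16+ and 3 p16-, was used. The deposited values are raw counts: the authors assigned fragments to the exons in GENCODE vM21 using featureCounts 1.6.0 without a strand option, per the file headers. The submitters' processing notes name bcl2fastq, the aligner STAR 2.7.3a and the build GRCm38.p6. The command line in the headers sets no option for overlapping genes or multiple alignments, and featureCounts by default leaves such fragments out. All 55536 gene identifiers and positions matched vM21, the source of symbols.

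Genes passing filterByExpr (15903, with 99.92% to 99.93% of the counts) were tested between groups with edgeR 4.0.16 in R 4.3.3 (TMM factors of 0.971 to 1.041, glmQLFit with robust estimation, glmQLFTest). Adjusted p-values are Benjamini-Hochberg over all genes tested, with a threshold of 0.05. Variation between replicates beyond counting was 0.158 (edgeR's common BCV). The standard error is the size of the log2 fold change divided by the root of F. CPM uses TMM-scaled totals, and CPM per kb divides it by the exonic length in the files. Zeros and floors of 3 counts cover counting error only.

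The members and lists were chosen with earlier results of these data known, so no list was tested as a set. All 37 members are named. From each further list up to 4 members past the threshold with the smallest p were named, from marker lists the most abundant and up to 2 past the threshold with the smallest p, and Cdkn2a, Ptprc and Pecam1 as checks of the sort. One gene that this rule names is not reported here. Tnfrsf11a, Cbfb, Ptch1, Gli1, Comp, Smpd3, Fgf23, Omd, Egr1, Tgfbi, Mmp9, Atp6v0d2, Oscar, Ocstamp, Dcstamp and Calcr were named after their values were seen. So were Itgb3, Nfatc1, Fap, Pdgfra and Dcn. Alternatives were RLE and upper-quartile factors, library sizes alone, no filter, a stricter filter (CPM of at least 1 in 3 libraries), DESeq2 1.42.0, a replicate block and the omission of each library.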

Additional observations from a re-analysis of the deposited data

How the results depend on the processing

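Of 358 refits of single members under the 13 alternatives, 324 kept both direction and side of the threshold. The calls of Runx2, Tnfrsf11b, Tnfsf11, Mkx, Matn2 and Cilp held in all 13. Direction turned only in members that had not passed: Sox5 had a log2 fold change of -0.04 with library sizes alone and -0.10 without p16+ replicate 3, Dlx5 0.16 without p16- replicate 2, Phex 0.33 without p16+ replicate 2, and Ptx4 -0.04 under the replicate block, -0.44 without p16+ replicate 3 and -0.10 without p16- replicate 3. With 1 library left out these spanned -0.10 to 0.10 for Sox5, -0.31 to 0.16 for Dlx5, -0.58 to 0.33 for Phex and -0.44 to 0.49 for Ptx4. The cause was not tested. With 1 library left out, 977 to 1333 genes were higher and 910 to 1234 lower in p16+, 2 to 6 cartilage members were higher and 0 to 1 lower, and 3 to 4 bone members were higher. Under the stricter filter 0 cartilage members were lower, because Cnmd was no longer tested. Of the further cartilage genes, 0 were higher with library sizes alone, 2 with no filter, the stricter filter, DESeq2 and the replicate block, and 0 to 1 with 1 library left out. The main split of all calls, 1382 higher and 1278 lower, was 1059 and 1882 with library sizes alone (36.0% higher in place of 52.0%), a scaling that moved the median log2 fold change of all genes to -0.08. Deviations from the group means correlated at 0.03, 0.08 and 0.00 between same-numbered libraries of the groups, and at -0.07 to 0.04 between the others. With 3 libraries per group these values cannot decide whether same-numbered libraries share an animal, which the sources do not state. The replicate block pairs samples by their number alone. It gave 1605 genes higher and 1509 lower. Under it Chad and Cilp2 passed (adjusted p = 0.0353 and 1.36e-04) and Dmp1 did not (adjusted p = 0.0625). Chad also passed with no filter (adjusted p = 0.0194). At this depth the low members Hapln1, Matn3, Sp7, Phex and Runx3, and Cnmd, which was called lower, had standard errors of 0.67 to 0.96.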
